A study of Drosophila melanogaster with 6 samples.

Results

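The odorant-binding proteins and olfactory receptors of the fly head were followed here as a set of 36 genes out of the 17545 genes in the count tables. The genes were chosen by name for their known roles, and the choice was made with earlier results of these data known. They comprised 21 odorant-binding protein genes, 11 receptor and co-receptor genes (Orco, Or22a, Or42b, Or47b, Or59b, Or67d, Ir25a, Ir76b, Ir8a, Gr21a and Gr63a), and 4 further genes of the antenna, which are Snmp1, Snmp2, Est-6 and a10. RNA was sequenced from heads of 5-day-old female flies in 2 groups of 3 libraries each. HSD-F1 flies were offspring of mothers kept from egg to adult on a high-sugar diet with 20% sucrose, and ND flies were offspring of mothers kept on normal food with 10% sucrose. According to the paper both groups were themselves raised on the normal diet, and HSD-F1 flies came from matings among flies raised on the high-sugar diet. The diets of mother and father can therefore not be told apart in these libraries. In separate crosses the paper fed only females or only males the high-sugar diet. There it reports a weaker feeding response to sucrose only where the female ancestor had been fed it. The labels give the genotype W+VDRC for all 6 libraries, whereas the paper names Canton-S as its wild-type strain, and this difference was not settled. Each library was made from a pool of heads.

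In the fly, an odorant enters a hair-like sensillum through pores and crosses a fluid, the sensillum lymph, before it reaches the dendrite of an olfactory neuron. Odorant-binding proteins (OBPs) are small secreted proteins that support cells release into this lymph, and many of them bind odorants or pheromones. The neurons detect odorants with receptors of the Or family, each of which works together with the co-receptor Orco, or with ionotropic receptors of the Ir family, which work with the co-receptors Ir25a, Ir8a and Ir76b. Carbon dioxide is detected by the pair Gr21a and Gr63a. Snmp1 is a CD36-related membrane protein that pheromone-sensing neurons need, and esterases such as Est-6 break down ester odorants. Several OBPs are also made outside the antenna, in taste organs, glia or fat body.

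The libraries held 20266352 to 26190694 counts, and HSD-F1 replicate 1 was the smallest. The replicates of a group were labelled as separate samples, and since it is not stated whether they came from separate cultures, the p-values describe the spread between these libraries. HSD-F1 replicate 1 stood apart for the olfactory genes. These genes took 0.597% of its counts, against 0.765% and 0.789% in HSD-F1 replicates 2 and 3 and 0.846%, 0.839% and 0.814% in ND replicates 1, 2 and 3. A single gene, Obp19d, weighed heavily in these shares. It held 44188 of the 120979 counts of the 36 genes in HSD-F1 replicate 1, and 90048 to 105803 counts in each of the other libraries. Of the 36 genes, 21 (58.3%) had their lowest level of the 6 libraries in HSD-F1 replicate 1, whereas this held for 26.5% of the 9432 tested genes with a mean count at least that of the least counted olfactory gene. Replicate 3 of each group stood apart in another way. The summed CPM (counts scaled to a common library size by edgeR's TMM method) of 18 ovary and egg genes was 31.6 in HSD-F1 replicate 3 and 118 in ND replicate 3, against 11.6 to 14.4 in the other 4 libraries. Results are therefore also given without these libraries where that changes them.

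The markers of olfactory sensilla were present in every library. Orco had 53.3 to 77.1 CPM over the 6 libraries, lush had 59.4 to 74.0 CPM and a10 had 194 to 232 CPM. All 36 genes passed the filter of 10 counts over the 6 libraries, and the smallest count of any of them in a library was 14, for Gr21a. The other tissues of a head were in the same libraries. The 5 photoreceptor genes summed to 31829 to 41320 CPM and the 5 neuron genes to 2979 to 3426 CPM. A list of 10 male genes summed to 10.7 to 14.5 CPM. Nearly all of this was lncRNA:roX1, with 10.4 to 14.35 CPM, and 4 of the 10 genes were at 0 in every library. In such bulk samples, fewer cells of a type and less RNA per cell cannot be told apart.

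To compare levels between genes, CPM was divided by the exonic length in kb. Most of the olfactory RNA came from a few OBP genes. Obp19d (Dmel_CG1668, X, 20419613 to 20420979, plus strand) was the highest, with a mean of 2820 CPM per kb in HSD-F1 and 3559 CPM per kb in ND heads, which ranked 11 among all genes, and it alone made up 42.9% of the CPM of the 36 genes in HSD-F1 and 47.5% in ND heads. Obp99c followed with 903 CPM per kb in HSD-F1 and 948 CPM per kb in ND heads. Obp44a, an OBP known from glia of the nervous system, had 809 CPM per kb in HSD-F1 and 755 CPM per kb in ND heads. Obp56d, Obp57c, Obp83a, Obp83b and Obp28a formed a second tier between 253.5 and 594 CPM per kb. As counted, the lowest OBPs were Obp56e and Obp8a. Obp56e had 2.78 CPM per kb in HSD-F1 and 3.12 CPM per kb in ND heads. Obp8a had 3.28 CPM per kb in HSD-F1 and 2.99 CPM per kb in ND heads.

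The receptors lay far below the leading OBPs. The co-receptor Orco, which every Or neuron uses, had 34.7 CPM per kb in HSD-F1 and 37.3 CPM per kb in ND heads. The next receptor genes, Or42b, Ir76b, Or59b, Or67d and Ir25a, lay between 3.04 and 4.32 CPM per kb in both groups, and their order changed between the groups. Orco was 9.04 times as high as Or59b per kb in HSD-F1 and 8.74 times in ND heads. The carbon dioxide receptor Gr21a was the lowest of the 36 genes, at 0.389 CPM per kb in HSD-F1 and 0.483 CPM per kb in ND heads. The OBP genes had exonic lengths of 500 to 1101 bp, against 1176 to 3587 bp for the receptor genes, so the length scaling matters for this order. Without the scaling, mean CPM in HSD-F1 heads was 3105 for Obp19d and 67.3 for Orco.

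**Figure D1:**
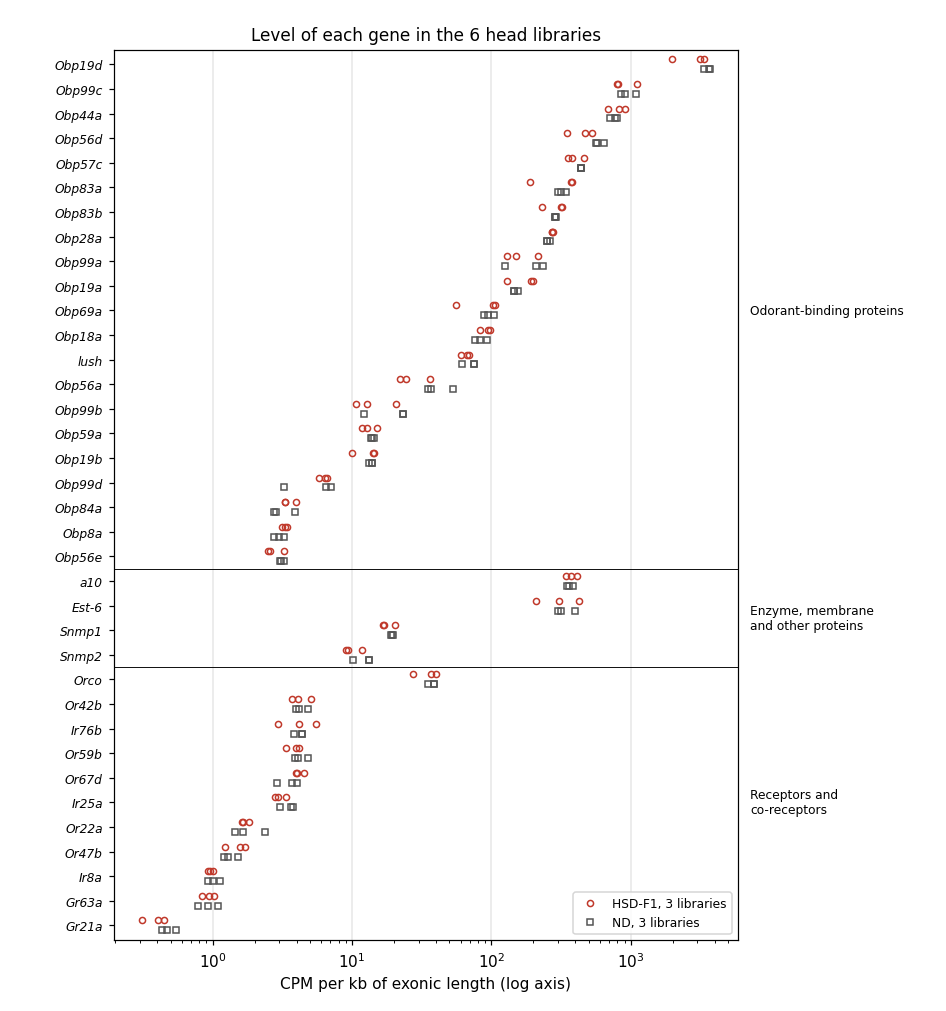
Level of each of the 36 genes in CPM per kb of exonic length (log axis), with 3 HSD-F1 libraries as circles and 3 ND libraries as squares. Within the OBPs the group means run from 2.78 CPM per kb for Obp56e to 3559 CPM per kb for Obp19d, and in most genes the symbols of both groups overlap.

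HSD-F1 and ND heads were then compared gene by gene with edgeR's quasi-likelihood test over the 12048 genes with enough counts, with p-values adjusted by the Benjamini-Hochberg method. Of the 36 genes, 2 had an unadjusted p under 0.05, Obp56a and Obp56d, and both were lower in HSD-F1 heads. This is 2 of 36 beside a background of 5.07% of all genes tested, of which 2.16% were lower and 2.91% higher in HSD-F1 heads. With the paper's further threshold of a 1.5-fold change only Obp56a was left, beside 1.81% of all genes in either direction and 0.672% that were lower. No olfactory gene had an adjusted p under 0.05, and the smallest adjusted p was 0.911 (all genes: 0.0664% called). DESeq2 and limma-voom also gave 0 adjusted calls and named the same 2 genes at an unadjusted p under 0.05. The number of olfactory genes at this unadjusted threshold changed with the libraries used. It was 4 without HSD-F1 replicate 1 (Obp19a, Obp56a, Obp56d and Obp83a; 6.47% of all genes), 4 without HSD-F1 replicate 3 (Obp19d, Obp56d, Obp57c and Obp99b; 5.03%), 3 without ND replicate 3 (Obp56a, Obp99b and Snmp2; 3.82%) and 4 with replicates 1 and 2 of each group only (Obp57c, Obp99b, Obp99c and Snmp2; 4.06%).

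The log2 fold changes of HSD-F1 over ND ranged from -0.60 for Obp56a to 0.23 for Or67d, with standard errors of 0.08 to 0.30. The fitted value was positive for 12 genes and negative for 24 (66.7%), where 50.6% of all genes tested had a negative value, and the median was -0.08 against 0.00 for all genes. The medians were -0.08 for the 21 OBPs, -0.08 for the 11 receptors and co-receptors and -0.11 for the other 4 genes. The values of Obp83b, Ir76b, Or42b and Gr63a were at 0.00 and changed sign between settings. With RLE scaling the split was 10 positive and 26 negative, and with at least 10 counts in every library it was 14 and 22. The lower median was not seen without 1 library. Without HSD-F1 replicate 1 the median of the 36 genes was 0.02, with 19 positive and 17 negative values, and the medians of OBPs and receptors were 0.07 and 0.04. For 21 of the 36 genes the 95% interval lay within a 1.5-fold change in either direction. The interval reached a 1.5-fold fall for 11 genes and a 1.5-fold rise for 4, so for these genes a change of that size lay within the error of the measurement.

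**Figure D2:**
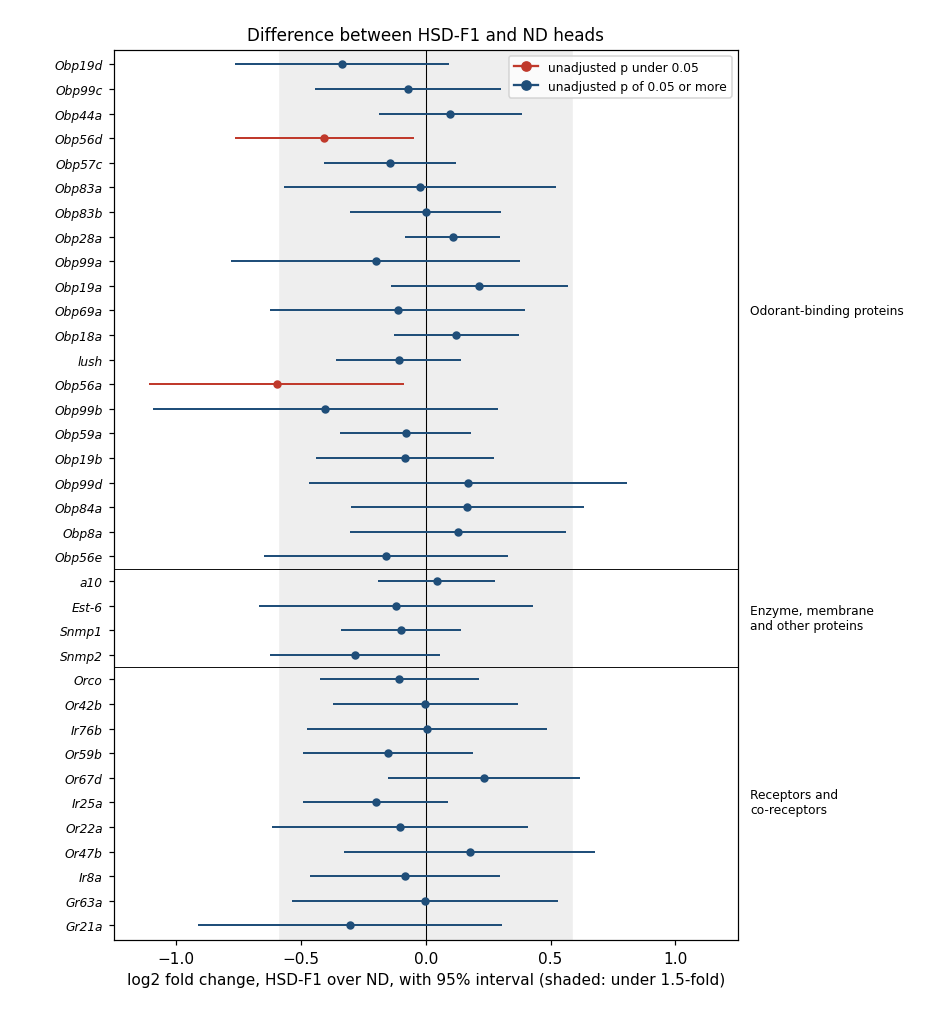
Log2 fold change of HSD-F1 over ND for each gene with its 95% interval from edgeR, red where the unadjusted p was under 0.05. The shaded band is a change of under 1.5-fold, and only the intervals of Obp56a and Obp56d leave 0 out, both on the lower side.

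The 2 genes with an unadjusted p under 0.05 lie in 1 cluster of OBP genes on chromosome arm 2R. Obp56a (Dmel_CG11797, 2R, 19697723 to 19698508, plus strand) had 19.9, 12.1 and 13.2 CPM in HSD-F1 replicates 1, 2 and 3, against 29.0, 19.1 and 20.1 CPM in ND replicates 1, 2 and 3. Replicate 1 was the highest of each group, and HSD-F1 replicate 1 lay between the ND libraries, so the groups overlapped. The mean was 15.1 ± 4.21 CPM in HSD-F1 and 22.7 ± 5.43 CPM in ND heads (SD, n = 3 each). The log2 fold change was -0.60 (95% interval -1.10 to -0.09), with an unadjusted p of 0.0261 and an adjusted p of 0.911 in edgeR's quasi-likelihood test. Permuting the 6 libraries exactly gave a two-sided p of 0.2 for its CPM, and 3 libraries against 3 allow no p below 0.1. Obp56a did not keep its unadjusted call without HSD-F1 replicate 2, HSD-F1 replicate 3 or ND replicate 1, where the log2 fold changes were -0.46, -0.51 and -0.38. Without HSD-F1 replicate 1 the value was -0.84, with an unadjusted p of 0.00279 and an adjusted p of 0.695 in edgeR's test.

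Obp56d (Dmel_CG11218, 2R, 19702924 to 19703915, minus strand), an OBP known from antenna, palp and taste organs, was more than 10 times as abundant. It had 323, 488 and 430.1 CPM in HSD-F1 replicates 1, 2 and 3, against 519, 528 and 596 CPM in ND replicates 1, 2 and 3. The 3 HSD-F1 libraries lay below all 3 ND libraries, and HSD-F1 replicate 1 was the lowest. The log2 fold change was -0.41 (95% interval -0.76 to -0.05), with an unadjusted p of 0.0294 and an adjusted p of 0.911 in edgeR's test, and the exact permutation test gave p = 0.1. Its log2 fold change was -0.26 once HSD-F1 replicate 1 was left out, with an unadjusted p of 0.0471. The call was lost without ND replicate 2 and without ND replicate 3, at log2 fold changes of -0.43 and -0.34.

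The neighbours in the Obp56 cluster differed widely in level. Obp56d and Obp56e lie 8429 bp apart, and Obp56d was 177 times as high per kb as counted. The level of Obp56e is uncertain, since 84.4% of its length overlaps a gene on the opposite strand. Obp56e, the remaining Obp56 gene of the 36, had a log2 fold change of -0.16 (unadjusted p = 0.469, edgeR). Between Obp56a and Obp56d lie Obp56b and Obp56c, which had 14 and 42 counts over all 6 libraries. Further along the arm, Obp56f had a log2 fold change of 0.09 (unadjusted p = 0.781, edgeR). Obp56g had one of 0.22 (unadjusted p = 0.081, edgeR) and Obp56h one of -0.15. The lower values were thus not shared along the whole cluster. Obp56i was at 0 counts in every library and gives no direction.

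Obp19d, the most abundant of the 36 genes, had the largest difference of the means in CPM among them. It had 2180, 3456 and 3678 CPM in HSD-F1 replicates 1, 2 and 3, against 4032, 4019 and 3706 CPM in ND replicates 1, 2 and 3. No HSD-F1 library reached the lowest ND library, but HSD-F1 replicate 3 lay close below it, and most of the difference came from HSD-F1 replicate 1. The mean was 3105 ± 809 CPM in HSD-F1 and 3919 ± 184 CPM in ND heads (SD, n = 3 each). The log2 fold change was -0.34 (95% interval -0.76 to 0.09; unadjusted p = 0.107 in edgeR's test), and it was -0.14 without HSD-F1 replicate 1.

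The other genes of the Obp19 cluster on the X chromosome varied. Obp19a, which lies 211 bp upstream of Obp19b, had 83.7, 122.5 and 127.5 CPM in HSD-F1 replicates 1, 2 and 3, against 94.0, 100.2 and 93.4 CPM in ND replicates 1, 2 and 3. HSD-F1 replicate 1 was the lowest library and HSD-F1 replicates 2 and 3 were the highest. The log2 fold change was 0.21 (unadjusted p = 0.196, edgeR), and without HSD-F1 replicate 1 it was 0.38 (unadjusted p = 0.00173, adjusted p = 0.571). That fit leaves out the lowest library of this gene, so its p-value cannot be read as evidence of a rise. Obp19b had a log2 fold change of -0.08, and Obp19d was 241 times as high as Obp19b per kb. Obp19c, a gene between Obp19b and Obp19d that is not among the 36, had 8.98, 7.75 and 9.15 CPM in HSD-F1 replicates 1, 2 and 3, against 10.5, 9.49 and 13.7 CPM in ND replicates 1, 2 and 3. As in Obp19d, each HSD-F1 library lay below each ND library, at a log2 fold change of -0.38 (unadjusted p = 0.039, adjusted p = 0.911, edgeR).

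In all, 3 of the 36 genes had groups that did not overlap in CPM, beside 11.8% of all genes tested (5.17% lower and 6.67% higher in HSD-F1 heads). Obp19d and Obp56d were lower in HSD-F1 heads, and the third, Obp28a (Dmel_CG6641, 2L, 7496791 to 7497365, minus strand), was higher. Obp28a is a major OBP of basiconic sensilla. It had 155, 159 and 157 CPM in HSD-F1 replicates 1, 2 and 3, against 143, 150.4 and 144 CPM in ND replicates 1, 2 and 3. The libraries of each group lay close together, the log2 fold change was only 0.11 ± 0.08 (SE), and the unadjusted p was 0.218 in edgeR's test. Its level in HSD-F1 replicate 1 was 1.03 times the mean of the other 5 libraries.

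**Figure D3:**
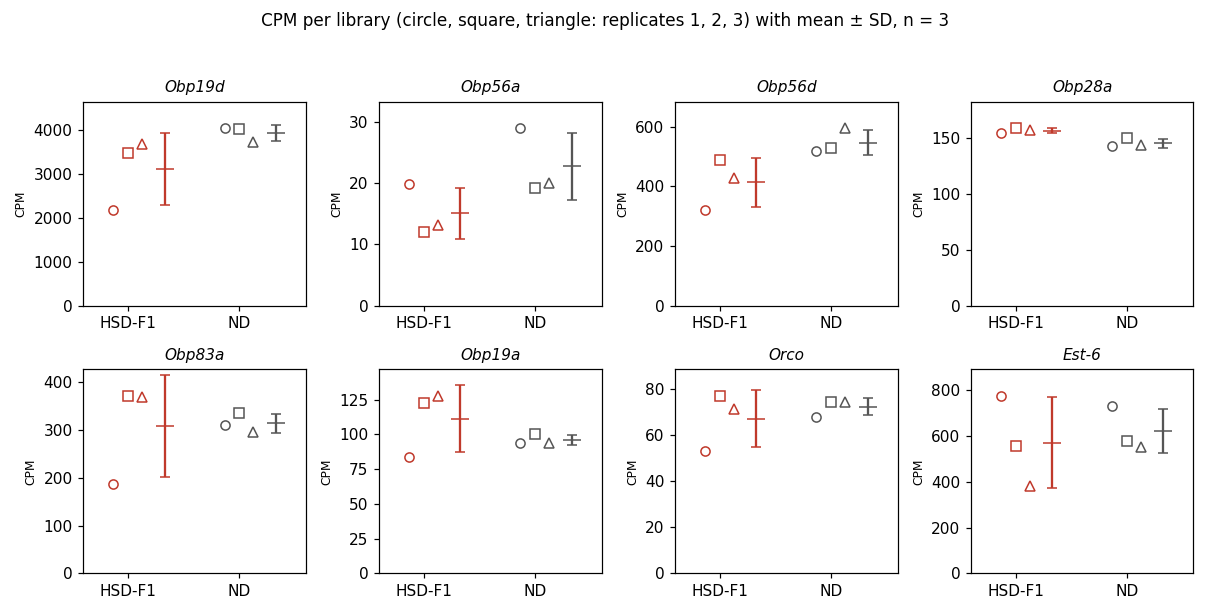
CPM in each library for 8 genes, with replicates 1, 2 and 3 as circle, square and triangle and the mean ± SD of 3 libraries beside them, HSD-F1 in red and ND in grey. In Obp19d, Obp56d, Obp83a, Obp19a and Orco the circle of HSD-F1 lies below the other 5 libraries, while Obp28a shows 3 HSD-F1 libraries at 155 to 159 CPM above 3 ND libraries at 143 to 150.4 CPM.

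Among the abundant OBPs, Obp99c had 539, 531 and 742 CPM in HSD-F1 replicates 1, 2 and 3, against 729.9, 607 and 565 CPM in ND replicates 1, 2 and 3. Obp44a had 740.4, 891 and 978 CPM in HSD-F1 replicates 1, 2 and 3, against 849.9, 766 and 821 CPM in ND replicates 1, 2 and 3. The groups overlapped in both genes, at log2 fold changes of -0.07 and 0.10 with standard errors of 0.16 and 0.12. Obp57c had 245.6, 242.5 and 244.4 CPM in the 3 ND libraries and varied more among the HSD-F1 libraries, at 198, 209.6 and 256 CPM.

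The next genes were singled out after their values were seen, for the low level of HSD-F1 replicate 1. Obp83a and Obp83b are the OS-F and OS-E proteins of trichoid sensilla and lie 931 bp apart on 3R in the same orientation, and their levels per kb differed by a ratio of only 1.09. Obp83a had 186, 371 and 369 CPM in HSD-F1 replicates 1, 2 and 3, against 309, 336 and 296 CPM in ND replicates 1, 2 and 3. Obp83b had 122, 166 and 169 CPM in HSD-F1 replicates 1, 2 and 3, against 152, 154 and 151 CPM in ND replicates 1, 2 and 3. In both genes HSD-F1 replicate 1 was the lowest and the other 2 HSD-F1 libraries were the highest of the 6. The log2 fold changes were -0.02 for Obp83a and 0.00 for Obp83b with all libraries. Without HSD-F1 replicate 1, Obp83a had a log2 fold change of 0.24 (unadjusted p = 0.0345, adjusted p = 0.695, edgeR). Since the gene was singled out for the low level of that library, this p-value cannot be read as evidence of a rise.

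Obp69a, which is known to respond to the male pheromone cis-vaccenyl acetate, had 30.4, 56.0 and 58.3 CPM in HSD-F1 replicates 1, 2 and 3, against 56.9, 51.9 and 47.9 CPM in ND replicates 1, 2 and 3. The low value was again that of HSD-F1 replicate 1. In contrast lush, the OBP that neurons need to detect this pheromone, had 67.5, 65.6 and 59.4 CPM in HSD-F1 replicates 1, 2 and 3, against 74.0, 72.9 and 60.5 CPM in ND replicates 1, 2 and 3. HSD-F1 replicate 1 was the highest HSD-F1 library for lush, and the log2 fold change was -0.11 ± 0.11 (SE). Obp99b, a gene with male-biased expression in fat body, varied from 6.36 to 12.3 CPM in HSD-F1 and from 7.21 to 13.8 CPM in ND heads, and with 0.30 it had the largest standard error of the 36 genes. Its log2 fold change was -0.40 with all libraries and -0.98 (unadjusted p = 0.000382, adjusted p = 0.15, edgeR) with replicates 1 and 2 of each group only.

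The remaining OBPs had overlapping groups and an unadjusted p above 0.2 in edgeR's test. Obp18a and Obp99a averaged 67.1 and 100.5 CPM in HSD-F1 heads, against 61.6 and 115.5 CPM in ND heads. Obp59a, which is known for a role in sensing humidity, averaged 13.4 ± 1.64 CPM in HSD-F1 and 14.1 ± 0.34 CPM in ND heads (SD, n = 3 each). Obp8a, Obp84a and Obp99d were present at only 1.78 to 3.14 CPM on average in either group, with log2 fold changes of 0.13, 0.17 and 0.17. Their values rest on 41 counts or more in each library, so only changes well beyond their standard errors of 0.19, 0.20 and 0.28 could be seen.

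Of the 11 receptors and co-receptors, 0 had an unadjusted p under 0.05 in edgeR's test, DESeq2 or limma-voom, and 0 had groups that did not overlap. Orco (Dmel_CG10609, 3R, 5407183 to 5412406, minus strand) had 53.3, 77.1 and 71.5 CPM in HSD-F1 replicates 1, 2 and 3, against 68.2, 74.6 and 74.6 CPM in ND replicates 1, 2 and 3. HSD-F1 replicate 1 was the lowest and HSD-F1 replicate 2 the highest of the 6. The log2 fold change of Orco was -0.11 (95% interval -0.42 to 0.21), and 0.04 without HSD-F1 replicate 1. Or42b, a receptor for food esters, had 4.49, 6.06 and 4.95 CPM in HSD-F1 replicates 1, 2 and 3, against 5.77, 4.79 and 5.02 CPM in ND replicates 1, 2 and 3. Ir76b, a co-receptor of olfactory and taste neurons, had 6.76, 12.7 and 9.55 CPM in HSD-F1 replicates 1, 2 and 3, against 10.1, 10.2 and 8.80 CPM in ND replicates 1, 2 and 3. The HSD-F1 libraries held both the lowest and the highest value of these 2 genes, and their log2 fold changes were 0.00 ± 0.16 and 0.00 ± 0.21 (SE).

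The pheromone receptors had the 2 largest positive values of the receptor group. Or67d, the receptor for cis-vaccenyl acetate, averaged 4.91 ± 0.38 CPM in HSD-F1 and 4.18 ± 0.70 CPM in ND heads (SD, n = 3 each), a log2 fold change of 0.23 (unadjusted p = 0.198, edgeR). Or47b, which detects fly-derived fatty acid esters, averaged 1.87 CPM in HSD-F1 and 1.66 CPM in ND heads. The receptors for fruit esters, Or59b and Or22a, had log2 fold changes of -0.15 and -0.10. The Ir co-receptors Ir25a and Ir8a had values of -0.20 and -0.08. Of the carbon dioxide pair, Gr21a averaged 0.864 CPM in HSD-F1 and 1.07 CPM in ND heads (log2 fold change -0.30, 95% interval -0.91 to 0.30), and Gr63a averaged 1.37 CPM in HSD-F1 and 1.38 CPM in ND heads. The wide interval of Gr21a includes a 1.5-fold fall.

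The proteins that act beside the receptors also had overlapping groups. The chemosensory protein a10, a small secreted protein of the antenna, had 194, 212 and 232 CPM in HSD-F1 replicates 1, 2 and 3, against 198, 217 and 204 CPM in ND replicates 1, 2 and 3. Snmp1 had 38.3, 46.1 and 38.9 CPM in HSD-F1 replicates 1, 2 and 3, against 44.2, 43.3 and 44.6 CPM in ND replicates 1, 2 and 3. Neither gene had a group that stood apart, with log2 fold changes of 0.04 and -0.10 and standard errors of 0.10 each. Snmp2, a CD36-related protein of support cells, averaged 28.5 ± 4.09 CPM in HSD-F1 and 34.7 ± 5.25 CPM in ND heads (SD, n = 3 each), a log2 fold change of -0.28 (unadjusted p = 0.0902, edgeR). Its unadjusted p fell under 0.05 without HSD-F1 replicate 2 and without ND replicate 3.

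Est-6 was high in HSD-F1 replicate 1. This carboxylesterase had 776, 559 and 381 CPM in HSD-F1 replicates 1, 2 and 3, against 732, 578 and 554 CPM in ND replicates 1, 2 and 3. Replicate 1 was the highest library of each group, and the spread within HSD-F1 exceeded the difference of the means, at a log2 fold change of -0.12 ± 0.24 (SE). The summed CPM of 5 head fat body genes was also highest in replicate 1 of each group, at 76629, 61916 and 60219 in HSD-F1 and 75123, 60751 and 69384 in ND replicates 1, 2 and 3. Of these 5 genes, Yp2 and Yp3 were highest in replicate 1 of each group, while Yp1 and Lsp2 were highest in ND replicate 3 among the ND libraries and to was highest in HSD-F1 replicate 2 among the HSD-F1 libraries. The part of fat body in the level of Est-6 was not tested.

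Described over the whole set, the ratio of HSD-F1 replicate 1 to the mean of the other 5 libraries had a median of 0.844, against 0.995 for the 9432 tested genes with comparable counts. In 9 genes (25%) the ratio was under 0.75, which held for 10.2% of the comparable genes. These were Obp83a, Obp69a, Obp19d, Obp99b, Obp56d, Ir76b, Gr21a, Obp19b and Orco, with ratios of 0.553, 0.562, 0.577, 0.583, 0.63, 0.658, 0.675, 0.716 and 0.729. Some other olfactory genes were not low in that library, with ratios of 1.02 for lush, 1.03 for Obp28a and 1.13 for Obp18a. For a10 it was the lowest library, but the ratio was 0.911. The median coefficient of variation of the 36 genes was 14.5% within HSD-F1 and 9.68% within ND, and it was likewise larger in HSD-F1 for the comparable genes, at 11.9% and 7.25%.

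Other head genes also moved in HSD-F1 replicate 1. The summed CPM of 5 photoreceptor genes was 31829, 41320 and 40690.5 in HSD-F1 replicates 1, 2 and 3. It was 35455, 35228 and 36596 in ND replicates 1, 2 and 3, so it was lowest in HSD-F1 replicate 1. Most of the sum came from ninaE, which had 19550 CPM in HSD-F1 replicate 1. Of the 5 genes, ninaE, ninaC, trp and norpA were lowest in that library. Arr2 was not, and had its highest HSD-F1 value there. The sum of the 5 neuron genes went the other way from the photoreceptor sum. It was 3426, 3132 and 3063 CPM in HSD-F1 replicates 1, 2 and 3, against 2979, 2998 and 3012 CPM in ND replicates 1, 2 and 3. Antdh, Os-C, Jhedup and Amt, 4 further genes of the antenna, summed to 549.9, 744 and 683 CPM in HSD-F1 replicates 1, 2 and 3, against 692, 707 and 670.4 CPM in ND replicates 1, 2 and 3. Antdh, Os-C and Jhedup were each lowest in HSD-F1 replicate 1. The scarcer Amt was not, with 12.1 CPM there against 11.3 CPM in HSD-F1 replicate 3 and 11.5 CPM in ND replicate 1. Chordotonal organs include the hearing organ of the antenna. Their 5 genes summed to 16.4, 16.8 and 16.6 CPM in HSD-F1 replicates 1, 2 and 3. In ND replicates 1, 2 and 3 the sums were 17.0, 18.0 and 19.2 CPM. The sum did not set HSD-F1 replicate 1 apart from HSD-F1 replicates 2 and 3, but single genes differed. In HSD-F1 replicate 1 nompC had its lowest value, 2.76 CPM against 3.81 to 5.09 CPM in the other libraries. By contrast, nan had its highest value there, and iav, tilB and btv were neither lowest nor highest. The part of tissue composition in the level of the olfactory genes was not tested.

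**Figure D4:**
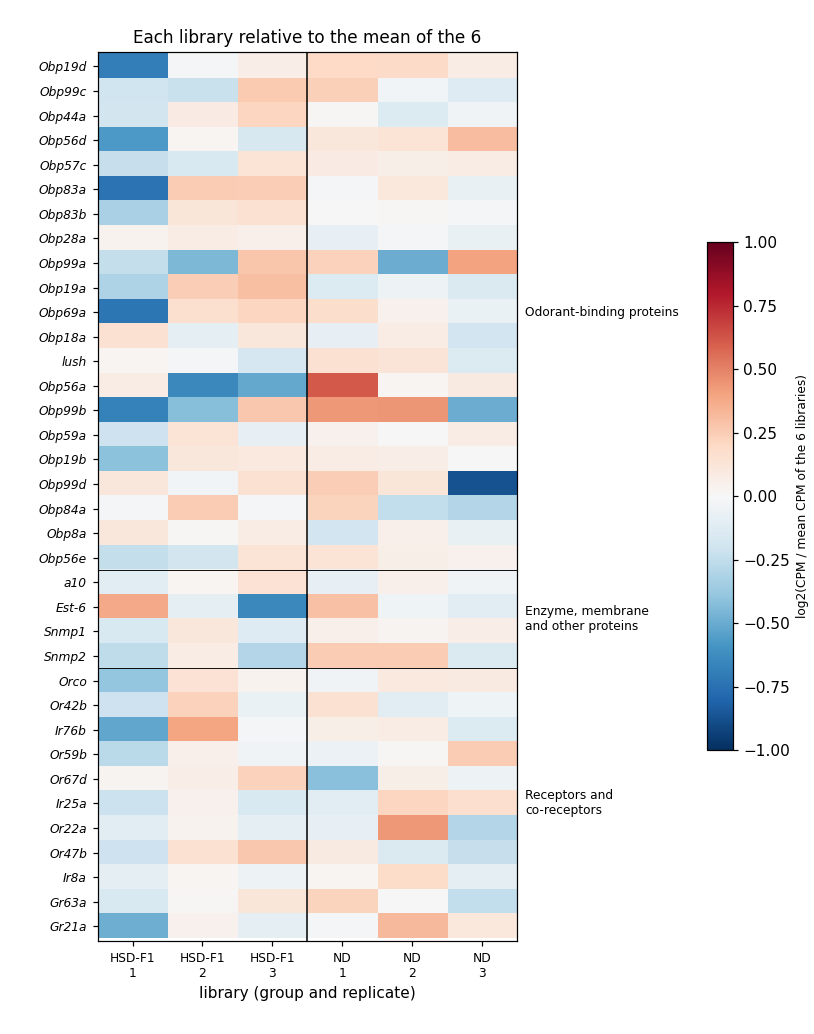
Log2 of the CPM of each library over the mean CPM of the 6 libraries, for each gene (rows, by role and level) and library (columns, HSD-F1 left and ND right). The first column is blue for most genes, since 21 of the 36 genes were lowest in HSD-F1 replicate 1, with lush, Obp28a, Obp18a and Est-6 among the exceptions.

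The other genes of the same families were looked at beside the 36. Of 31 further Obp genes, 17 had enough counts to test and 7 were at 0 in every library. Their median log2 fold change was -0.09 with 7 positive and 10 negative values, and 2 had an unadjusted p under 0.05, both lower in HSD-F1 heads. This median also depended on single libraries, but not in the way of the 36 genes, since it was -0.18 with 5 positive and 11 negative values without HSD-F1 replicate 1. It was -0.03 without HSD-F1 replicate 2 and 0.01 without ND replicate 1. The calls changed as well. With limma-voom 1 of these genes was called, and 0 were called without HSD-F1 replicate 2, HSD-F1 replicate 3 or ND replicate 1. The 2 genes called in edgeR with all libraries were Obp19c, named above, and Obp83cd, an OBP with a duplicated domain. Obp83cd had 13.7 ± 0.77 CPM in HSD-F1 and 17.8 ± 3.91 CPM in ND heads (SD, n = 3 each), with an unadjusted p of 0.0471 and an adjusted p of 0.911 in edgeR's test. Its groups overlapped, since ND replicate 3 had 13.5 CPM against 13.2 to 14.6 CPM in the HSD-F1 libraries. The most abundant of the further Obp genes per kb were Obp56g, Obp49a and Obp57a, with log2 fold changes of 0.22, 0.05 and -0.07.

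Of 54 further Or genes, 42 could be tested, with 25 positive and 17 negative values and a median of 0.04. The median was 0.14 without HSD-F1 replicate 1, 0.00 without HSD-F1 replicate 3, 0.00 without ND replicate 1, 0.16 without ND replicate 2 and 0.15 without ND replicate 3. Only Or35a, a receptor of coeloconic sensilla, had an unadjusted p under 0.05, beside 5.07% of all genes tested. It had 8, 9 and 17 counts in HSD-F1 replicates 1, 2 and 3, against 20, 33 and 20 counts in ND replicates 1, 2 and 3. Each HSD-F1 library lay below each ND library, at a log2 fold change of -0.99 (unadjusted p = 0.0276, adjusted p = 0.911, edgeR), but the counts were small. DESeq2 called 0 of these 42 genes at an unadjusted p under 0.05 and limma-voom called 2. Or43b, Or22b and Or63a, the most abundant, had log2 fold changes of 0.04, 0.19 and 0.02.

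The 14 further Ir genes of the antenna had a median of -0.15, with 3 positive and 11 negative values, and 0 of them had an unadjusted p under 0.05 in edgeR, DESeq2 or limma-voom. Without HSD-F1 replicate 1 their median was -0.08, and without HSD-F1 replicate 3 it was -0.20 with 1 gene called. The most abundant, Ir76a, averaged 13.7 ± 2.34 CPM in HSD-F1 and 14.3 ± 1.52 CPM in ND heads (SD, n = 3 each). The 3 relatives of a10 were also close between groups, and the most abundant, EbpIII, averaged 903 ± 48.2 CPM in HSD-F1 and 924 ± 109 CPM in ND heads (SD, n = 3 each). No gene of these lists had an adjusted p under 0.05 in edgeR, DESeq2 or limma-voom.

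Of the 36 genes, 7 share exonic bases with a gene on the opposite strand, and it is not stated whether strand was used in counting. The overlap is large for Obp84a, where 663 bp (81.2% of its exonic length) lie in the 3' UTR of Dtwd2, a gene with 447 counts over the 6 libraries against 408 for Obp84a. Its level is therefore uncertain. Obp56e shares 84.4% of its length with asRNA:CR44509, which had only 1 count. How reads in the shared part were assigned is not known, so the level of Obp56e is uncertain as well. Obp44a and Obp59a share 19.1% and 22.2% of their length with Pabp2 and CG30259, and Obp69a, Obp99c and Est-6 share less than 10%. Or22a has a related neighbour gene, Or22b, and how reads shared by both were counted was not checked. Or22a had 47 to 89 counts per library and a log2 fold change of -0.10, and Or22b one of 0.19 (unadjusted p = 0.248, edgeR).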

How the data were processed

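Head RNA of 3 HSD-F1 and 3 ND libraries (poly(A) RNA, paired-end reads) was used. The authors deposited 1 table of read counts per gene and library, as whole numbers without normalization or pooling, after keeping uniquely mapped reads. FPKM values, which the paper's methods describe, were not used here. The submitters' processing notes name HISAT2 2.0.4, Bowtie2 2.2.5, RSEM 1.2.12 and DESeq2 1.4.5 without roles, and the counting program and its use of strand are not given in the sources used here. Locus tags were matched to RefSeq's gene table of Release 6 of the fly genome (17504 of 17545 genes), and exon features were taken from the Ensembl release 115 annotation, which held all 36 genes at the same positions.

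Statistics used edgeR 4.0.16 in R 4.3.3, with DESeq2 1.42.0 and limma 3.58.1 for alternatives. Tables used SciPy 1.17.1, numpy 2.4.6 and pandas 2.3.3 under Python 3.11.15. The 12048 genes whose counts summed to 10 or more across libraries were kept. TMM (trimmed mean of M-values) scaled the libraries, and glmQLFTest after glmQLFit compared the groups without further terms. CPM are counts scaled to a common library size after TMM. Standard errors and 95% intervals of log2 fold changes came from the fitted coefficient and the quasi-likelihood dispersion. The count of a gene and its spread between libraries both bear on this precision. The standard error was 0.19 for the abundant Obp19d and also 0.19 for the scarce Obp8a. The intervals cover the spread between 3 libraries a group. Single genes were also compared by a two-sided exact permutation test over the 20 assignments of libraries. Scripts were tested on simulated data.

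The 36 genes, the other gene lists and the tests were chosen with earlier results of these data known. Values per library are given for the 3 most abundant genes of each role per kb and for genes with an unadjusted p under 0.05 or groups that did not overlap. Of every other list, up to 3 of the most abundant genes and up to 3 with the smallest unadjusted p under 0.05 were named. Further genes were chosen after their values were seen. Alternatives were RLE size factors, no filter, at least 10 counts in every library, DESeq2, limma-voom, a block for the replicate number, leaving out each library, and replicates 1 and 2 only. Reads were not analysed here, and no sequences are shown.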

Additional observations from a re-analysis of the deposited data

How the results depend on the processing

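Changing the normalization, the filter or the test left Obp56a and Obp56d as the only olfactory genes with an unadjusted p under 0.05, and 0 of the 36 genes had an adjusted p under 0.05 under any of the 13 alternatives. The count of olfactory genes with an unadjusted p under 0.05 was 1 to 4 when a library was left out (4 without HSD-F1 replicate 1 and without HSD-F1 replicate 3, 1 without ND replicate 1), and the count past 1.5-fold was 0 to 2. Over all genes, 426 to 806 of the 11821 to 11860 tested had an unadjusted p under 0.05 when a library was left out. With replicates 1 and 2 of each group only, 4 olfactory genes had an unadjusted p under 0.05, beside 4.06% of all genes tested. They were Obp57c, Obp99b, Obp99c and Snmp2, which include neither Obp56a nor Obp56d. Leaving out a library moved the median log2 fold change from -0.122 to 0.021 over the 36 genes, from -0.161 to 0.066 over OBPs and from -0.153 to 0.036 over receptors, each highest without HSD-F1 replicate 1. With replicates 1 and 2 only, the OBP median was -0.184.

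Over all genes, the count with an unadjusted p under 0.05 and a 1.5-fold change was 218, and it was 119 with at least 10 counts in every library and 140 with DESeq2. The count with an adjusted p under 0.05 was 8, against 28 with DESeq2, 5 with limma-voom, 38 with the replicate block, 18 with replicates 1 and 2 only, and 4 to 21 when a library was left out.

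Same-numbered libraries of the 2 groups did not deviate together throughout (Pearson r across 8864 genes of 0.355, -0.0943 and 0.367 for numbers 1, 2 and 3), HSD-F1 replicate 2 correlated best with ND replicate 1 (r = 0.141), and genes are not independent replicates, so the numbers were not taken as pairs. With the replicate block, 3 olfactory genes had an unadjusted p under 0.05, beside 665 of the 12048 genes tested. The third was Snmp2 (-0.28), and Obp56a had an adjusted p of 0.128 in this edgeR fit.

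Of 468 single-gene values under the alternatives, 44 changed sign, and among the others 12 gained and 7 lost an unadjusted p under 0.05. Obp83b was at -0.007 with RLE, -0.002 without a filter, -0.007 with DESeq2, -0.017 with limma-voom, -0.015 with the replicate block and -0.087 with replicates 1 and 2 only. Ir76b was at -0.002 with RLE, -0.003 with DESeq2, -0.022 with limma-voom, -0.031 with the replicate block and -0.045 with replicates 1 and 2 only. Or42b was at 0.002 with at least 10 counts in every library, 0.001 with limma-voom and 0.009 with replicates 1 and 2 only. Gr63a was at 0.004 with at least 10 counts in every library, 0.014 with limma-voom and 0.006 with the replicate block. With replicates 1 and 2 only, Obp99d, Est-6 and a10 were at -0.141, 0.030 and -0.030. Over the fits that left out a library, the values ran from -0.173 to 0.066 for Obp19b, -0.27 to 0.13 for Obp69a, -0.177 to 0.239 for Obp83a, -0.082 to 0.137 for Obp83b, -0.245 to 0.043 for Obp99c, -0.106 to 0.372 for Obp99d, -0.216 to 0.036 for Orco, -0.251 to 0.133 for Or22a, -0.137 to 0.087 for Or42b, -0.246 to 0.202 for Ir76b, -0.113 to 0.12 for Gr63a, -0.402 to 0.104 for Est-6 and -0.024 to 0.106 for a10.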
